A study of Homo sapiens with 6 samples.

Results

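Human chromosome 18 was followed gene by gene through 59 of its genes, taken by symbol from a table of 20442 genes measured by RNA sequencing. The genes were listed by name and selected on their place along both arms and on the log2 fold changes between the groups seen in an earlier look at these libraries, so their differences between the groups are given here as a description and not as a test. Of the 59 listed genes, 58 had a mean level of at least 1 FPKM over the 6 libraries, the minimum for testing, 26 on the short arm and 32 on the long arm. FPKM counts the fragments of a transcript, scaled to its length and to the number of fragments mapped in the library. PIEZO2, a mechanosensitive ion channel on the short arm, was listed at 0 in every library.

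The libraries came from HK-2 cells, an immortalized human proximal tubule epithelial line, and fell into 3 labelled HNRNPF overexpression and 3 labelled control. Cells of the first group received a lentivirus to overexpress hnRNP F, the RNA-binding and splicing protein that HNRNPF encodes. Cells of the second received a control lentivirus, which the labels call a control plasmid. All were cultured for 72 h in medium with either 30 mM glucose or 30 mM mannitol, the osmotic control, and which of them a given library had is not in the labels. All libraries stand for 1 cell line. Each group was grown in parallel wells and the study calls its libraries biological replicates, and which wells gave which library, or whether wells were handled apart, is not stated, so the spread may be partly technical.

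HNRNPF itself (gene ID 3185, chromosome 10) went against the labels. It had 323, 350 and 321 FPKM in the libraries labelled overexpression, against 555, 563 and 589 FPKM in the control libraries, a log2 fold change of -0.78 (SE 0.061, limma adjusted p = 1.07e-04, n = 3 each). The table does not separate the cell's own transcript from the delivered one. The study lists the delivered gene under a gene ID other than 3185, the same ID that it gives for the construct used in its mouse podocytes. Reads were aligned to the human genome, and whether fragments of the delivered gene entered these values was not tested. Every direction below follows the labels as given. If the labels were exchanged, every direction and sign below would turn, and the labels cannot settle this. Between 12396 and 12462 genes reached 1 FPKM in each library, and Pearson's r across genes lay at 0.989 to 0.994 for libraries of the same group and at 0.978 to 0.985 across groups. Of 7 proximal tubule markers, 5 stayed below 1 FPKM in every library, among them LRP2, listed at 0, and CUBN, while none of 7 markers of renal epithelial lines did. The tubule markers above 1 FPKM were SLC5A2 and GGT1. SLC5A2 had 18.25 to 19.35 FPKM under the overexpression label and 15.92 to 19.19 FPKM in control, and GGT1 90.2 to 107 FPKM and 66.3 to 79.1 FPKM. Summed over the 7 tubule markers, the libraries labelled overexpression had 110.35 to 126 FPKM and the control libraries 83.9 to 99.0 FPKM, most of it GGT1. The part of these markers in the chromosome 18 values was not tested.

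Chromosome 18 is one of the gene-poor human autosomes, and its genes share a location and no single function. Neighbouring genes are carried together when a stretch of DNA is gained or lost, and they can lie in the same chromatin domain. Neither DNA copy number nor chromatin was measured in these libraries. The listed genes include SMAD2, SMAD4 and SMAD7, which carry and restrain TGF-beta signals, a pathway known for fibrosis in the kidney tubule, and DSG2 and DSC2, cadherins of the desmosome that join epithelial cells.

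MYL12A and MYL12B are neighbours on the short arm that encode near-identical regulatory light chains of non-muscle myosin, and they were the most abundant listed genes. Their coding sequences are shown first because they differ at few positions. The coding sequences of MYL12A (chr18:3247482-3256237, plus strand) and MYL12B (chr18:3262133-3278461, plus strand) on GRCh38, taken from GENCODE, are 513 and 516 bases long, with 491 of 516 aligned positions identical (95.2%) and a longest shared run of 77 bases. The last 120 coding bases differ at a single position, marked by a capital.
MYL12A: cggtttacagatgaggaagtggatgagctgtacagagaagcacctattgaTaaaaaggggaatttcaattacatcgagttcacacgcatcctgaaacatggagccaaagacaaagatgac
MYL12B: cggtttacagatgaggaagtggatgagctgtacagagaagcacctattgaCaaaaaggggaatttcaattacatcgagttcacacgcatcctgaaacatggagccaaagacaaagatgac
The reads were longer than the longest shared run, uniquely mapped reads alone were counted, and up to 4 mismatches were allowed. How the fragments of the pair were divided was not tested.

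The 250 bases before each start site, from RefSeq (GRCh38.p14, plus strand), are shown because the start sites lie less than 15 kb apart and both transcripts were lower together. Capitals mark GC boxes, the letters GGGCGG or their reverse complement CCGCCC. The windows are chr18:3247232-3247481 for MYL12A and chr18:3261883-3262132 for MYL12B.
MYL12A promoter: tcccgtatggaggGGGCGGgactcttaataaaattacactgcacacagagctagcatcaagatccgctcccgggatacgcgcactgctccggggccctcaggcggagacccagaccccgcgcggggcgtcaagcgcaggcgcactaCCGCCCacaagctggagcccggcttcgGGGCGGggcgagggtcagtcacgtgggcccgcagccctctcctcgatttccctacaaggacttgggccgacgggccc
MYL12B promoter: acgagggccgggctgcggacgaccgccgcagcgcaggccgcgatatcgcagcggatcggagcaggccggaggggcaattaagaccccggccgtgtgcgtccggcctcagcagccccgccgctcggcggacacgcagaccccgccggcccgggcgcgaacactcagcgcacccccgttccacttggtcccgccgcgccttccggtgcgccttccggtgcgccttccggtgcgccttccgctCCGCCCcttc
The first window had a GC content of 67.2% with 24 CpG and 3 GC boxes, and the second 75.6% with 40 CpG and 1 GC box. Neither held the letters CCAAT or TATAAA on either strand. A window of this kind was at hand for 53 listed genes, and 66.0% of them held a GC box, against 68.4% of 10126 tested genes. CCAAT (or ATTGG) occurred in 34.0% of the windows of listed genes, against 35.2% of all, and TATAAA (or TTTATA) in 1.9%, against 5.3%. These are matches of letters and not binding sites, and in the windows shown no match overlapped another.

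The question put to the list was whether neighbours shift together along both arms. Of the 58 listed genes tested, 56 had a log2 fold change below 0 and 2 above it, EPB41L3 and B4GALT6. The median was -0.30 (interquartile range -0.37 to -0.13, from -0.74 to 0.75), a level 1.23-fold lower in the libraries labelled overexpression, where the median over all 12461 tested genes was -0.01 with 52.2% below 0. Fewer cells and less RNA per cell cannot be told apart in such bulk libraries. The short-arm median was -0.29 over 26 genes, of which 25 were below 0, and the long-arm median was -0.31 over 32 genes, of which 31 were below 0.

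By limma's moderated test with Benjamini-Hochberg adjustment over all tested genes, 28 listed genes passed an adjusted p of 0.05 as lower (48.3%), where 13.1% of all tested genes did, and 1 passed as higher (1.72%), where 11.3% did. In 39 listed genes all 3 libraries labelled overexpression lay below all 3 control libraries, where 22.5% of all tested genes did, and in 1 all lay above, where 19.6% did. Because this contrast was known when the genes were listed, nothing is read from these shares. The 28 genes became 13 without control replicate 2, where the share of all tested genes was 5.7%, and 18 without overexpression replicate 3, where it was 8.1%. They became 36 without control replicate 3, where it was 17.5%. That share was 9.6% without overexpression replicate 1, 8.5% without overexpression replicate 2 and 8.1% without control replicate 1, and the counts of smaller groups below are set against these shares. Meanwhile the median stayed between -0.33 and -0.27 with any 1 library left out.

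Each library was then set against the mean of the control libraries. The median listed gene stood at -0.32, -0.24 and -0.28 on the log2 scale in the libraries labelled overexpression, against 0.05, 0.01 and -0.07 in the control libraries. No library labelled overexpression reached the level of any control library. Over 12288 tested genes outside chromosome 18 the same medians lay between -0.02 and 0.00 under the overexpression label and between -0.01 and 0.01 in control. As a share of all FPKM, the listed genes took 0.264%, 0.281% and 0.272% in the libraries labelled overexpression, against 0.351%, 0.344% and 0.334% in control, or 0.272% ± 0.00865 against 0.343% ± 0.00857 (SD, n = 3 each).

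**Figure D1:**
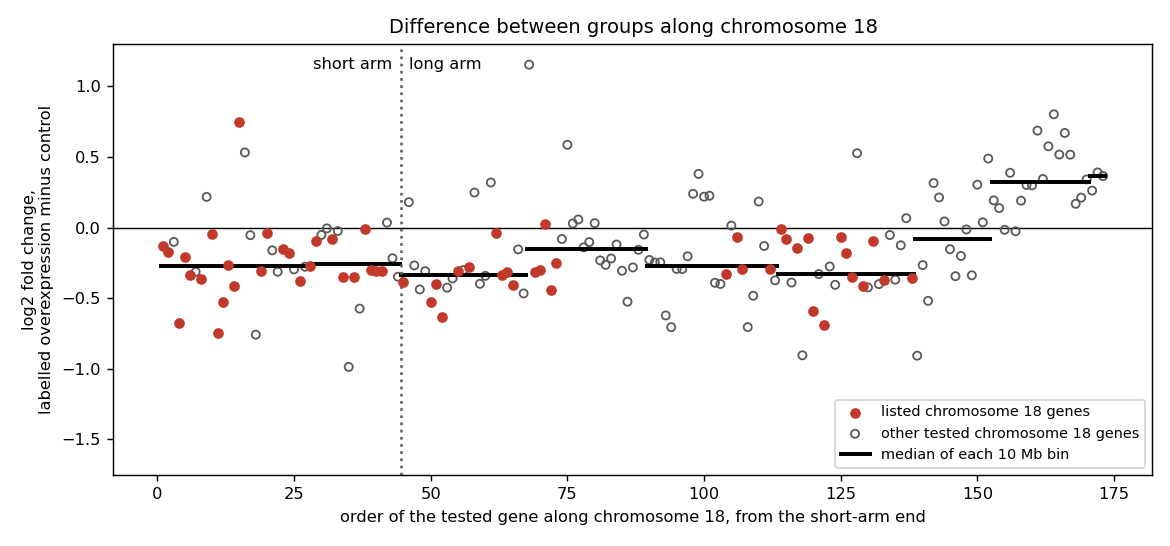
Log2 fold change (labelled overexpression minus control, on log2(FPKM + 0.1)) of each tested chromosome 18 gene, in order from the short-arm end. Filled points are listed genes, open points the other tested genes, and black lines the medians of 10 Mb bins, which lie below 0 in the first 7 bins and above 0 in the last 2.

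The size of the difference varied little with level, and 26 of 58 genes lay between -0.2 and -0.4. The 20 least abundant listed genes (1.44 to 12.6 FPKM) had a median of -0.32, the 19 of middle abundance (14.0 to 30.9 FPKM) one of -0.29, and the 19 most abundant (31.4 to 446 FPKM) one of -0.28. A group of 7 lay below -0.5, and 13 lay within 0.1 of 0. Pearson's r of the fold change over these 58 genes, which share 6 libraries, was -0.05 with mean level, 0.19 with transcript GC content and 0.03 with transcript length.

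The contractile pair had the highest values of all listed genes. MYL12A had 302, 282 and 299.9 FPKM in the libraries labelled overexpression, against 524, 501 and 456 FPKM in the control libraries, with a log2 fold change of -0.74 (95% interval -0.90 to -0.59). MYL12B had 373, 358 and 365 FPKM in the libraries labelled overexpression, against 551, 544 and 487 FPKM in the control libraries, with a log2 fold change of -0.53 (95% interval -0.67 to -0.38). In both, every library labelled overexpression lay below every control library, at a level 1.67-fold lower for MYL12A and 1.44-fold lower for MYL12B.

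EPB41L3, which encodes a band 4.1 protein linking the membrane to the actin skeleton, went the other way and was the single listed gene that passed as higher. Its levels were 23, 25.9 and 23.3 FPKM under the overexpression label and 13.8, 14.4 and 14.6 FPKM under the control label, 1.68-fold higher, with a log2 fold change of 0.75 (95% interval 0.58 to 0.92). All 3 libraries labelled overexpression lay above all 3 control libraries. It lies at chr18:5392386-5630663, between the listed genes ZBTB14 and PTPRM, both of which had log2 fold changes below 0. The next tested gene on the PTPRM side, TMEM200C, was not listed and had a log2 fold change of 0.53. Its levels were low, 1.19 to 1.21 FPKM under the overexpression label and 0.67 to 0.94 FPKM in control, and it did not pass the test.

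The other members of this group act at junctions or on actin. DSG2, a desmosomal cadherin, had 43, 46.1 and 43.7 FPKM in the libraries labelled overexpression, against 57, 54.8 and 52.1 FPKM in the control libraries, with a log2 fold change of -0.30 (95% interval -0.45 to -0.16). DSC2, its desmocollin partner, had 5.54, 5.31 and 5.90 FPKM in the libraries labelled overexpression, against 6.90, 6.30 and 7.73 FPKM in the control libraries, with a log2 fold change of -0.31 (95% interval -0.56 to -0.06). Neither pair of groups overlapped, and DSC2, the less abundant, did not pass the test. Means below carry the SD over 3 libraries. ROCK1, a kinase that promotes phosphorylation of myosin light chains, averaged 13.5 ± 0.842 FPKM against 17.8 ± 2.31 FPKM in control, SPIRE1, an actin nucleator, 14.9 ± 1.44 FPKM against 19 ± 1.14 FPKM in control, and the receptor phosphatase PTPRM 23.4 ± 1.59 FPKM against 29 ± 1.14 FPKM in control. Of the 8 tested genes for adhesion, membrane skeleton and contraction, 6 passed as lower and 1 as higher, where 13.1% and 11.3% of all tested genes did, with a median of -0.33. The 6 became 2 without control replicate 2 (5.7% of all tested genes) and 3 without overexpression replicate 1 or 3 (9.6% and 8.1%).

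**Figure D2:**
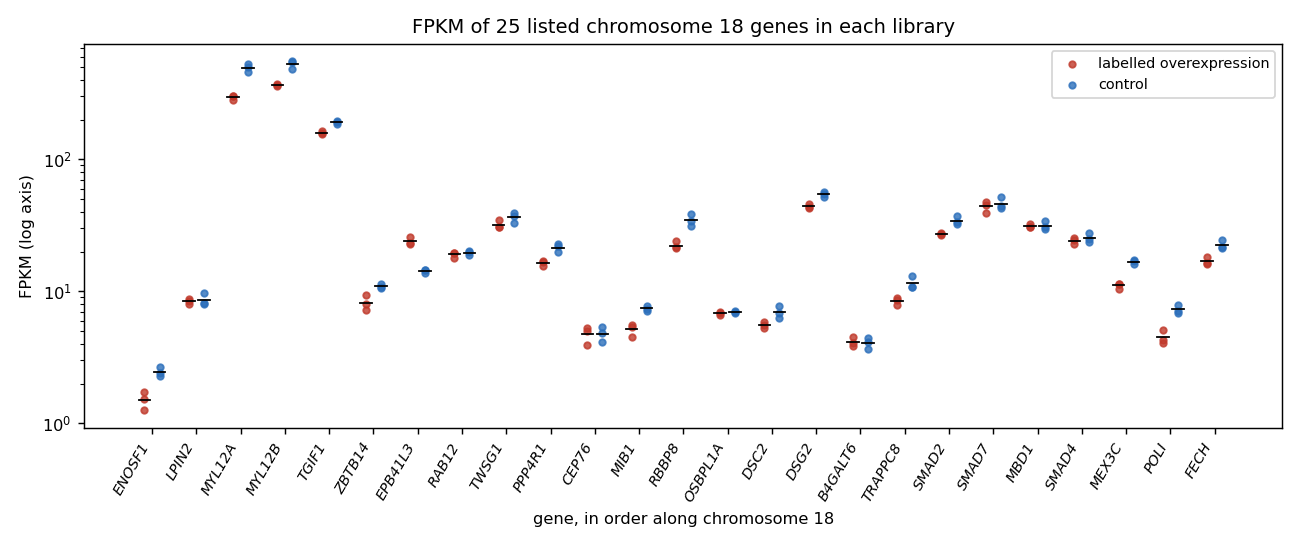
FPKM (log axis) of 25 listed genes in each library, in order along chromosome 18. Points are libraries, red for those labelled overexpression and blue for control, and black bars are means (n = 3 each). The groups stand apart for MYL12A, RBBP8 and POLI and overlap for LPIN2, CEP76 and MBD1, with EPB41L3 higher in the libraries labelled overexpression.

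The listed SMAD genes had log2 fold changes of -0.33 to -0.07 with overlapping intervals, and the differences among them were not tested. SMAD2, a receptor-activated SMAD that carries TGF-beta and activin signals, had 27.2, 27.8 and 26.6 FPKM in the libraries labelled overexpression, against 37.2, 33.3 and 32.3 FPKM in the control libraries, with a log2 fold change of -0.33 (95% interval -0.49 to -0.16) and no overlap between groups. SMAD4, the common partner that enters the nucleus with SMAD2, had 25.1, 23 and 24.3 FPKM in the libraries labelled overexpression, against 27.5, 25.1 and 23.8 FPKM in the control libraries. SMAD7, the inhibitor that these signals induce, had 39.3, 47.7 and 45.3 FPKM in the libraries labelled overexpression, against 42.9, 44.2 and 51.5 FPKM in the control libraries. The groups overlapped for both, with log2 fold changes of -0.07 (95% interval -0.25 to 0.10) for SMAD4 and -0.07 (95% interval -0.28 to 0.14) for SMAD7.

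A further pair modulates these signals from the short arm. TGIF1, a homeodomain repressor that binds SMAD proteins, had 154, 163 and 157 FPKM in the libraries labelled overexpression, against 194, 193 and 185 FPKM in the control libraries, with a log2 fold change of -0.27 (95% interval -0.39 to -0.14) and no overlap. TWSG1, a secreted modulator of BMP signals, had 30.8, 30.8 and 34.6 FPKM in the libraries labelled overexpression, against 37.2, 39.1 and 33 FPKM in the control libraries, with a log2 fold change of -0.18 (95% interval -0.37 to 0.00), and its groups overlapped. Of these 5 genes, 2 passed as lower, SMAD2 and TGIF1, where 13.1% of all tested genes did, and the median was -0.18. SMAD2 did not pass without overexpression replicate 3, nor TGIF1 without control replicate 2, and TWSG1 passed without control replicate 3.

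RBBP8 and POLI, both genes of DNA repair, were among the listed genes with the largest differences. RBBP8, which encodes the end-resection factor CtIP, had 21.3, 21.5 and 23.9 FPKM in the libraries labelled overexpression, against 38.4, 34.1 and 31.2 FPKM in the control libraries, with a log2 fold change of -0.63 (95% interval -0.83 to -0.43). POLI, a translesion DNA polymerase, had 4.30, 4.08 and 5.13 FPKM in the libraries labelled overexpression, against 7.94, 6.89 and 7.08 FPKM in the control libraries, with a log2 fold change of -0.69 (95% interval -0.96 to -0.42). The groups stood apart for both, at 1.55-fold and 1.61-fold lower levels. CEP76, a centriole protein, had 5.04, 3.90 and 5.29 FPKM in the libraries labelled overexpression, against 5.34, 4.84 and 4.13 FPKM in the control libraries, and its groups overlapped. CEP76 shares 40822 bases of its locus with PSMG2, so fragments of the 2 genes may be mixed, since the strand setting of the counting is unknown. Shorter overlaps of 110 to 3354 bases with neighbours touch USP14, THOC1, SPIRE1 and AFG3L2. SEH1L, a nuclear pore subunit, averaged 28.1 ± 0.498 FPKM against 34.8 ± 1.04 FPKM in control, and CEP192, a centrosome scaffold, 4.63 ± 0.230 FPKM against 5.75 ± 0.346 FPKM in control. Of these 5 genes 3 passed as lower, where 13.1% of all tested genes did, with a median of -0.31.

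The listed ubiquitin ligases ranged from -0.59 for MEX3C to -0.09 for NEDD4L. MEX3C, an RNA-binding ubiquitin ligase, had 11.4, 11.4 and 10.5 FPKM in the libraries labelled overexpression, against 16.1, 17 and 17.2 FPKM in the control libraries, with a log2 fold change of -0.59 (95% interval -0.77 to -0.42). MIB1, the ligase that drives internalization of Notch ligands, had 5.38, 5.56 and 4.50 FPKM in the libraries labelled overexpression, against 7.36, 7.15 and 7.76 FPKM in the control libraries, with a log2 fold change of -0.53 (95% interval -0.78 to -0.27). Neither gene had overlapping groups. NEDD4L, which tags the epithelial sodium channel for removal, averaged 22.4 ± 1.74 FPKM against 23.9 ± 0.785 FPKM in control, the deubiquitinase USP14 63.4 ± 1.49 FPKM against 69.4 ± 3.10 FPKM in control, and the ligase RNF138 20.3 ± 1.84 FPKM against 24.1 ± 1.98 FPKM in control. AFG3L2, a subunit of a mitochondrial inner-membrane protease, had 32.9, 32.8 and 31.6 FPKM in the libraries labelled overexpression, against 41.4, 41.1 and 41.5 FPKM in the control libraries, and the control values lay within 0.5 FPKM of one another. Of the 6 genes for ubiquitin and protein turnover 3 passed as lower, where 13.1% of all tested genes did, with a median of -0.30. The 3 became 5 without control replicate 3 (17.5% of all tested genes).

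Among 8 genes of membrane and lipid traffic, 4 passed as lower, where 13.1% of all tested genes did, and the median was -0.28. The 4 became 1 without control replicate 2 (5.7% of all tested genes) or without overexpression replicate 3 (8.1%). They became 2 without overexpression replicate 1 (9.6%) or 2 (8.5%) or control replicate 1 (8.1%). TRAPPC8, a subunit of the TRAPP tethering complex, had 8.56, 7.88 and 8.90 FPKM in the libraries labelled overexpression, against 13, 10.8 and 10.7 FPKM in the control libraries, with a log2 fold change of -0.44 (95% interval -0.67 to -0.21) and no overlap. VAPA, an endoplasmic reticulum protein at membrane contacts, averaged 157 ± 9.13 FPKM against 189.8 ± 16.1 FPKM in control, and NPC1, which exports cholesterol from lysosomes, 44.6 ± 1.97 FPKM against 54.1 ± 1.77 FPKM in control. NPC1 shares 25639 bases of its locus with RMC1. RAB12, a small GTPase of endosomes, had 18, 19.6 and 19.6 FPKM in the libraries labelled overexpression, against 18.7, 20.1 and 19.9 FPKM in the control libraries. OSBPL1A, an oxysterol-binding protein relative, had 6.87, 6.97 and 6.57 FPKM in the libraries labelled overexpression, against 6.99, 6.83 and 7.16 FPKM in the control libraries. Both had overlapping groups and a log2 fold change of -0.04, the smallest in this group. DYM, a Golgi protein, averaged 13.6 ± 0.428 FPKM against 16.8 ± 1.65 FPKM in control, WDR7, which associates with the vacuolar proton pump, 1.85 ± 0.271 FPKM against 2.37 ± 0.119 FPKM in control, and NAPG, a SNARE recycling adaptor, 16.6 ± 0.968 FPKM against 17.9 ± 2.44 FPKM in control.

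The 11 genes for chromatin, transcription and mRNA export had a median of -0.31 and all lay below 0, while 2 of 11 passed as lower, ZBTB14 and SMCHD1, where 13.1% of all tested genes did. Neither kept its call without control replicate 2 or overexpression replicate 3, 1 gene passed without control replicate 1 or overexpression replicate 1, and 4 passed without control replicate 3. ZBTB14, a zinc finger transcription factor, had 8.06, 9.41 and 7.22 FPKM in the libraries labelled overexpression, against 10.8, 10.6 and 11.4 FPKM in the control libraries, with a log2 fold change of -0.41 (95% interval -0.65 to -0.17) and no overlap. SMCHD1, a structural chromatin protein needed for X inactivation, had 9.70, 9.76 and 9.71 FPKM in the libraries labelled overexpression, against 13.7, 12.2 and 11.8 FPKM in the control libraries, and the first group spanned less than 0.1 FPKM. MBD1, which binds methylated CpG, had 30.9, 30.6 and 32.2 FPKM in the libraries labelled overexpression, against 29.8, 30.5 and 34.3 FPKM in the control libraries, with a log2 fold change of -0.01 (95% interval -0.18 to 0.16), its first group lying inside the range of control. CXXC1, which binds unmethylated CpG, was close to it at 30.1 ± 0.655 FPKM against 31.8 ± 2.69 FPKM in control. The transcription factor GATA6 averaged 6.11 ± 0.195 FPKM against 8.23 ± 1.79 FPKM in control, its control libraries being spread widely, and TAF4B, a TFIID subunit, 1.86 ± 0.382 FPKM against 2.47 ± 0.260 FPKM in control. TCF4, a basic helix-loop-helix factor, was near the lower limit of testing at 1.40 ± 0.0608 FPKM against 1.47 ± 0.132 FPKM in control. SS18, a BAF complex subunit, averaged 11.3 ± 1.79 FPKM against 14 ± 0.491 FPKM in control, METTL4, an adenosine methyltransferase, 10.6 ± 1.28 FPKM against 13.5 ± 2.83 FPKM in control, ANKRD12 4.97 ± 0.351 FPKM against 5.55 ± 0.448 FPKM in control, and THOC1, a subunit of the THO export complex, 19.6 ± 0.645 FPKM against 22.2 ± 1.75 FPKM in control.

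Among 7 metabolic genes the median was -0.14, and 3 passed as lower, FECH, ACAA2 and ENOSF1, where 13.1% of all tested genes did. ENOSF1 kept its call only when no library or overexpression replicate 3 was left out, and 1 gene of this group passed without control replicate 2. FECH, ferrochelatase of haem synthesis, had 16.1, 16.5 and 18.3 FPKM in the libraries labelled overexpression, against 24.6, 21.9 and 21.5 FPKM in the control libraries, with a log2 fold change of -0.41 (95% interval -0.60 to -0.22) and no overlap. ENOSF1 had 1.54, 1.26 and 1.73 FPKM in the libraries labelled overexpression, against 2.42, 2.27 and 2.67 FPKM in the control libraries, with a log2 fold change of -0.67 (95% interval -1.08 to -0.27). It shares 10593 bases with TYMS, which is far more abundant at 218 to 236 FPKM under the overexpression label and 235 to 254 FPKM in control, and fragments of the shared stretch may be divided between them in an unknown way. ACAA2, a thiolase of mitochondrial fatty acid oxidation, averaged 68.4 ± 2.86 FPKM against 83.7 ± 2.92 FPKM in control. LPIN2, a phosphatidate phosphatase, had 8.45, 8.72 and 7.98 FPKM in the libraries labelled overexpression, against 8.15, 8.04 and 9.80 FPKM in the control libraries. B4GALT6, which makes lactosylceramide, had 3.86, 4.54 and 4.04 FPKM in the libraries labelled overexpression, against 4.13, 4.44 and 3.68 FPKM in the control libraries. The groups overlapped for both, with log2 fold changes of -0.04 (95% interval -0.28 to 0.19) for LPIN2 and 0.02 (95% interval -0.27 to 0.31) for B4GALT6. IMPA2, an inositol monophosphatase, averaged 48.5 ± 1.42 FPKM against 51.4 ± 2.28 FPKM in control, and ME2, the mitochondrial malic enzyme, 28.3 ± 0.409 FPKM against 31.4 ± 3.38 FPKM in control.

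The last group joins kinases, phosphatases and genes of survival and translation, of which 5 of 8 passed as lower, where 13.1% of all tested genes did. Their median was -0.32, with a range of -0.38 to -0.18. The 5 became 2 without control replicate 2 (5.7% of all tested genes) and 8 without control replicate 3 (17.5%). PPP4R1, a regulatory subunit of protein phosphatase 4, had 17, 15.6 and 16.7 FPKM in the libraries labelled overexpression, against 21.9, 22.7 and 19.7 FPKM in the control libraries, with a log2 fold change of -0.38 (95% interval -0.56 to -0.20) and no overlap. PMAIP1, which encodes the pro-death BCL2 family protein NOXA, was the listed gene closest to the long-arm end and had 268, 257 and 299 FPKM in the libraries labelled overexpression, against 362, 357 and 336 FPKM in the control libraries. MALT1, a paracaspase of NF-kB signalling, averaged 41.3 ± 1.25 FPKM against 53.4 ± 4.01 FPKM in control. Both stood apart between the groups. IMPACT, which restrains the kinase GCN2, averaged 12.6 ± 0.231 FPKM against 15.9 ± 0.489 FPKM in control, and RIOK3, an atypical kinase, 33.2 ± 1.06 FPKM against 41.3 ± 3.54 FPKM in control. TXNL1, a thioredoxin-like protein of the proteasome, averaged 103 ± 1.09 FPKM against 117 ± 12.4 FPKM in control, the SRC-family kinase YES1 31 ± 1.52 FPKM against 36 ± 3.24 FPKM in control, and the phosphatase PTPN2 11.2 ± 1.58 FPKM against 13.7 ± 1.20 FPKM in control.

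**Figure D3:**
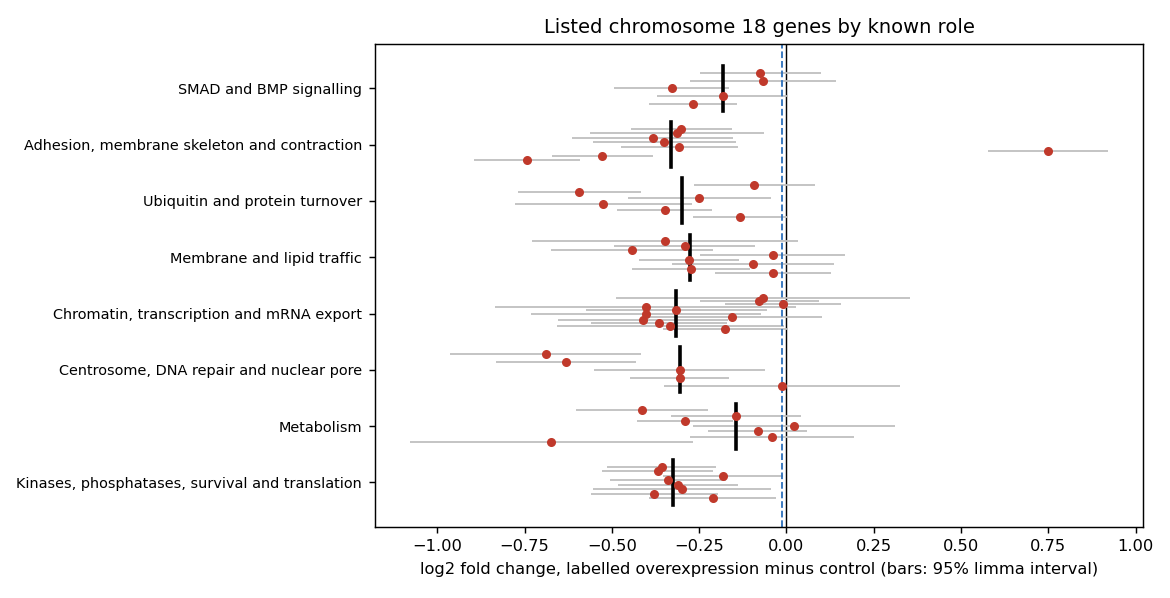
Log2 fold change of the 58 tested listed genes by known role, with bars for the 95% limma interval. Black ticks are the medians of the groups and the dashed blue line is the median of all 12461 tested genes (-0.01). Every group median lies to the left of that line, from -0.33 to -0.14, and EPB41L3 is the single point far to its right.

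The other tested genes between the listed ones were then taken by position. They are what remained after the list was drawn with the fold changes known, and the list also sets where the span ends. The values within and beyond it are thus not independent of that choice. The 80 other tested genes within the span of the list had a median of -0.24, with 61 of 80 below 0 and 44 with all 3 libraries labelled overexpression below control, and 32 passed as lower (40.0%) and 1, DSC3, as higher. Over all tested genes 13.1% passed as lower and 22.5% had all 3 below. The 32 became 17 without control replicate 2 and 18 without overexpression replicate 3, where 5.7% and 8.1% of all tested genes passed. The median of this set was -0.28 with a minimum of 5 FPKM and -0.16 when every gene with any value above 0 was kept, against -0.30 for the list under either filter. Once a trend on GC content and transcript length was removed, the median of this set was -0.16, against -0.22 for the list. The difference between the 2 sets was not tested because the list was drawn from known values. Against the control mean their median stood at -0.22, -0.17 and -0.25 in the libraries labelled overexpression, against 0.01, 0.00 and -0.03 in control.

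Beyond PMAIP1, the last listed gene, the median was above 0, although the next tested genes, RNF152, PIGN and RELCH, still had log2 fold changes of -0.91, -0.27 and -0.52. RELCH passed as lower, and RNF152 and PIGN did not pass. RNF152 was near the lower limit of testing, with 1.14, 1.14 and 0.35 FPKM in the libraries labelled overexpression, against 1.45, 1.59 and 1.64 FPKM in the control libraries. The list holds no gene from this end of the long arm. The 35 tested genes there had a median of 0.21, with 10 below 0, and 11 passed as higher (31.4%) and 3 as lower (8.57%), where 11.3% and 13.1% of all tested genes did. With any 1 library left out, 4 to 11 passed as higher, fewest without control replicate 2, and the share of all tested genes moved from 4.3% to 16.7%. Against the control mean their median stood at 0.20, 0.28 and 0.21 in the libraries labelled overexpression, against 0.04, 0.01 and -0.03 in control, so every one of the first group lay above every control library. NFATC1, a calcineurin-dependent transcription factor chosen here after its values were seen, had 3.67, 3.45 and 3.53 FPKM in the libraries labelled overexpression, against 2.04, 2.05 and 2.52 FPKM in the control libraries. CTDP1, a phosphatase of RNA polymerase II, likewise chosen, had 19.3, 19.5 and 19.8 FPKM in the libraries labelled overexpression, against 11.8, 12.8 and 16.8 FPKM in the control libraries. The groups stood apart for both. KDSR, a sphingolipid enzyme nearer to the listed genes and also chosen after its values were seen, had 23, 28.6 and 29.2 FPKM in the libraries labelled overexpression, against 33.2, 33.7 and 35.3 FPKM in the control libraries, and it was lower with no overlap.

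**Figure D4:**
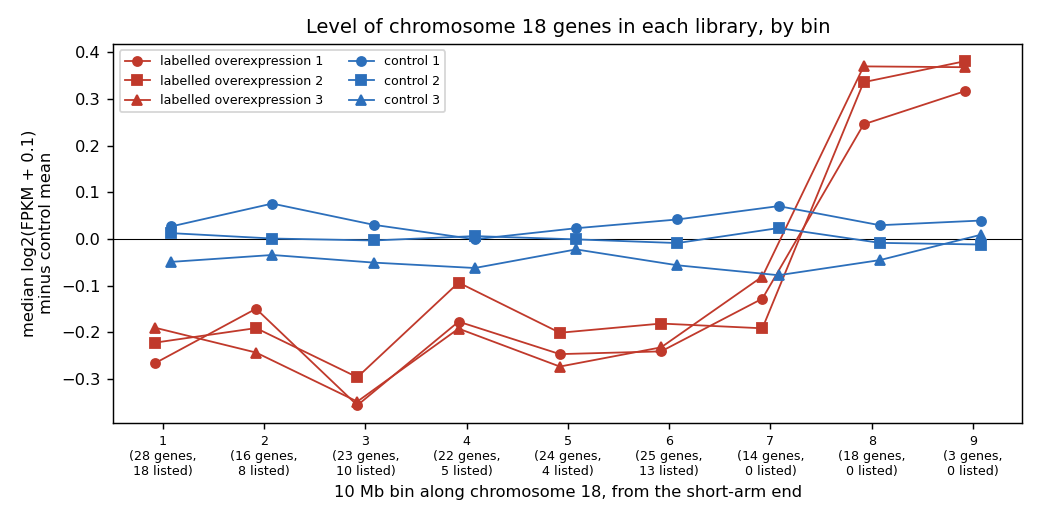
Median log2(FPKM + 0.1) of the tested genes in each 10 Mb bin of chromosome 18, minus the control mean, for each library (red, labelled overexpression, and blue, control). In bins 1 to 6 every red point lies below every blue point, in bin 7 the groups nearly touch, and in bins 8 and 9 every red point lies above.

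Bins of 10 Mb were taken from the short-arm end, and the first 6 hold all the listed genes tested. Over listed and other genes together, the median log2 fold change there was -0.27, -0.26, -0.34, -0.15, -0.27 and -0.33. The listed genes alone had medians of -0.27, -0.30, -0.36, -0.30, -0.29 and -0.18, and the other genes -0.22, -0.13, -0.31, -0.12, -0.25 and -0.35. The bin median was -0.08 over 14 genes in bin 7, 0.32 over 18 genes in bin 8 and 0.36 over 3 genes in bin 9. In bin 8, 16 of 18 genes lay above 0, and 8 passed as higher by limma, where 11.3% of all tested genes did. The 8 became 3 without control replicate 2 (4.3% of all tested genes), 4 without overexpression replicate 3 (5.5%) and 5 without overexpression replicate 2 (6.1%). They were 6 without overexpression replicate 1 (8.0%), 8 without control replicate 1 (6.7%) and 9 without control replicate 3 (16.7%). The longest unbroken stretch of genes below 0 held 25 tested genes, L3MBTL4 to CEP192 on the short arm, 14 of them listed. Others held 17 genes each, INO80C to C18orf25 with none listed and LIPG to WDR7 with 10 listed. CEP76 and MBD1, each at -0.01, lie within the first and the last of these stretches and were above 0 with TPM or median-of-ratios scaling, which breaks both. The first also holds MPPE1, not listed, at -0.01. With the trend on GC content and transcript length removed, RAB12, NAPG and CEP76 in the first and TCF4 in the last lay above 0. Near the long-arm end 16 genes in a row, CNDP2 to PARD6G, lay above 0.

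Base composition moved with position. Median transcript GC content was 41.2% for the listed genes, 44.2% for the other genes within their span, 46.1% beyond it and 48.6% over all tested genes, and it was 50.5% in bin 8. Once a smooth trend of the fold change on GC content and transcript length was removed, the median of the listed genes was -0.22, that of bin 8 was 0.33, and bins 1 to 6 lay between -0.28 and -0.10. The 4 listed genes with a GC content above 55%, CXXC1, IMPA2, SMAD7 and MBD1, lay between -0.08 and -0.01 as deposited and between -0.18 and -0.10 after removal. The other 54 had medians of -0.31 and -0.23. This cut was set after seeing the data, and GATA6, just under it at 54.99%, lay at -0.40 and -0.49.

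Set beside the other autosomes, chromosome 18 had the lowest median log2 fold change, -0.21 over 173 tested genes, where chromosome 14 also rounds to that value and chromosome 17 stood at 0.18. With the labels exchanged chromosome 18 would have the highest. The share of its genes passing as lower was 36.4%, against 2.09% to 36.3% on the others. Adjacent tested genes had the same sign in 135 of 172 pairs (78.5%), against 51.8% to 73.6% on the others, and Pearson's r between adjacent genes was 0.41, against -0.02 to 0.23. These values are descriptions over genes that share 6 libraries, the chromosome was picked with its values known, and no test of the difference was made. After removal of the GC and length trend the median of chromosome 18 was -0.14, rank 2 among 22, with 76.2% same-sign pairs and r of 0.36, against 48.6% to 73.4% and -0.01 to 0.22.

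**Figure D5:**
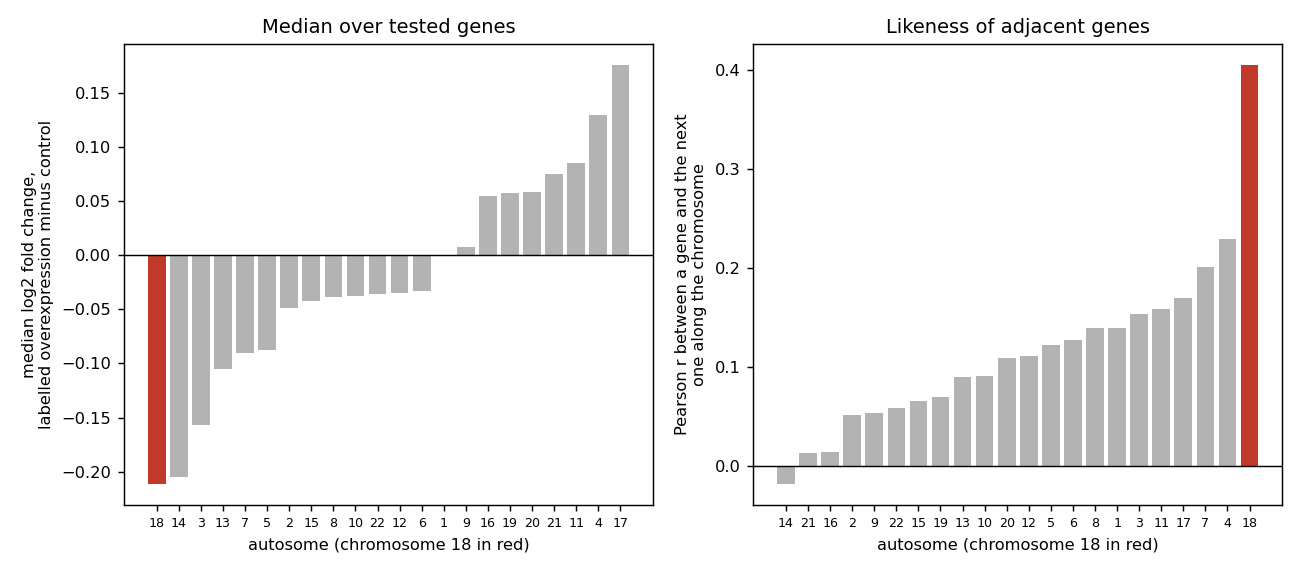
Left, median log2 fold change (labelled overexpression minus control) over the tested genes of each autosome, ordered by value. Right, Pearson's r between the fold change of a tested gene and that of the next one along the chromosome. Chromosome 18 (red) is lowest on the left at -0.21 and highest on the right at 0.41.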

How the data were processed

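The authors deposited FPKM values, rounded to 2 decimals, for 6 libraries. Libraries were strand-specific, paired-end and poly(A)-selected. Per the study's methods, trimmed reads were aligned to GRCh38 with HISAT2, allowing up to 4 mismatches, and uniquely mapped reads were counted. HISAT2 and DESeq2 also appear in the submitters' processing notes. Annotation and counter are not given in the sources used here, and a batch adjustment is described without saying whether it entered these values. FPKM corrects for length and library size, not for library makeup or GC content.

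Counts were not used here, so DESeq2 was replaced by limma 3.58.1 (R 4.3.3; lmFit, eBayes with trend, two-sided) on log2(FPKM + 0.1), which understates the change of low genes. Genes with a mean of at least 1 FPKM were tested, 12461 of 20442, with Benjamini-Hochberg adjustment over all of them and a threshold of 0.05. Symbols were matched to RefSeq (GRCh38.p14), 20164 directly and 202 by synonym, with 76 unmatched. The fit was tested on simulated data. Depth was searched for in low values of genes with 1 exon, as the depth that makes their fragments whole. At the best trial depth 40.0% to 46.7% of values lay within 0.15 of a whole fragment. Chance gives 30.0% at a fixed depth and more at the best of many, so the search did not settle the depth of each library.

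The listed genes, their roles and the 2 marker lists were chosen with earlier results of these data known. Values per library are given for the 6 largest and 3 smallest absolute fold changes on each arm, for SMAD2, SMAD4, SMAD7, TGIF1, TWSG1, DSC2, DSG2, MYL12A and MYL12B, and for HNRNPF. Those of AFG3L2, SMCHD1, PMAIP1, NFATC1, CTDP1 and KDSR were added after their values were seen. Alternatives were pseudocounts of 1 and 0.01, no filter, a filter at 5 FPKM, 3 scalings (median-of-ratios, quantile, TPM), limma without trend or robust, a replicate block, and each library left out. Removal of a smooth trend (span 0.3) on GC content and transcript length was added after seeing the data. Figures used matplotlib 3.10.9 in Python 3.11.15.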

Additional observations from a re-analysis of the deposited data

How the results depend on the processing

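The count of listed genes passing as lower (28) ranged from 13 to 36 with 1 library left out, where 5.7% to 17.5% of all tested genes passed, and from 23 to 29 under the other alternatives, and the count passing as higher stayed at 1 in all of them. With the trend on GC content and transcript length removed, chosen after seeing the data, the medians were -0.22 for the listed genes, -0.20 on the short arm, -0.23 on the long arm and -0.087 for the other tested chromosome 18 genes. That last median was -0.22 with a filter at 5 FPKM, -0.052 with no filter and -0.15 to -0.087 with 1 library left out. Replicate numbers did not pair the libraries (correlations of same-numbered deviations 0.09, -0.09 and 0.01), and the replicate block gave 29 genes as lower.

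Among the genes given per library, sign changes occurred in genes near 0 that passed no test. They were RAB12 (0.030), CEP76 (0.087) and OSBPL1A (0.032) with the trend removed, CEP76 (0.023) and MBD1 (0.026) as TPM, CEP76 (0.00047) and MBD1 (0.0035) with median-of-ratios scaling, and CEP76 (0.0053) with quantile scaling. With 1 library left out, the ranges were -0.071 to 0.0026 for RAB12, -0.13 to 0.014 for SMAD7, -0.11 to 0.12 for CEP76, -0.049 to 0.084 for B4GALT6, -0.050 to 0.053 for MBD1 and -0.092 to 0.049 for LPIN2. Of the other listed genes, TCF4 (0.013) and NAPG (0.017) also changed sign with the trend removed. The causes were not tested. Over 25 named genes, 16 further fits lost a call, mostly of ENOSF1 and ZBTB14, and 1, TWSG1 without control replicate 3, gained one. The study gives read totals for its glucose and mannitol libraries. Which of those these 6 libraries are is not in the labels, so no counting error is given.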
